A study of Mus musculus with 10 samples.

Results

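The genes described here are 10 genes of the luminal epithelium of the prostate: the keratin genes Krt8, Krt18, Krt19 and Krt7, the cell adhesion genes Cdh1 and Epcam, and the claudin genes Cldn3, Cldn4, Cldn7 and Cldn10. They were chosen by name, as the genes whose symbol in the platform annotation equals one of these 10, out of 19938 genes with a probe set of a single symbol. Each gene is represented by its probe set with the highest mean over the 10 arrays, and all 10 lay above the filter on low values. The samples are prostates of male TRAMP mice, 10 in all, each hybridised to its own whole-transcript array. From 8 to 9 weeks of age, 5 mice drank tap water with nicotine, given as the tartrate salt at 250 µg/ml, and 5 mice drank tap water alone. All 10 mice, those on water included, carry the TRAMP transgene, in which the promoter of the prostate secretory gene Pbsn drives a viral T antigen, so this is common to both groups, and no mouse without the transgene enters the comparison. The age at dissection was not given in the sources used here. Values are the deposited log2 values, on which 1 unit is a doubling, and levels of different genes are not compared because each probe set has its own response.

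Keratins are the intermediate filament proteins of epithelial cells and assemble as pairs of a type I and a type II chain. Keratin pairs made from Krt18 or Krt19 with Krt8 or Krt7 mark simple and luminal epithelium, in contrast to the Krt5 and Krt14 pair of basal cells. E-cadherin, the product of Cdh1, joins neighbouring epithelial cells at adherens junctions through catenins, claudins form the strands of tight junctions that seal the lumen, and Epcam is an epithelial surface protein that binds claudin-7.

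The 10 arrays had medians of 7.50 to 7.57. Arrays of 8 mice had a median correlation with the other arrays of 0.983 to 0.988 over the 14953 tested genes, while nicotine 1 stood at 0.880 and nicotine 3 at 0.654. These 2 prostates were also high in neuroendocrine markers such as Chga, whose list of 11 measured genes had a mean level of 9.56 for nicotine 1 and of 9.86 for nicotine 3, against 6.95 to 7.48 in the 5 water mice. The mean of the prostate secretory markers was 9.83 for nicotine 1 and 6.94 for nicotine 3, against 10.63 to 10.87 in water mice. Because these 2 arrays stand apart, the differences between nicotine and water mice are given with and without them. The labels name all 10 samples as prostate, and the luminal genes were high in 9 of them: the mean of the 10 genes was 11.51 to 11.64 in nicotine 1, 2, 4 and 5 and 11.42 to 11.57 in the 5 water mice, but 7.46 in nicotine 3. The 11.64 was that of nicotine 1, where Krt7 was 3.84 units above its water mean. Only 3 of the 10 genes were above their water means in nicotine 1, and the median distance was -0.20.

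**Figure D1:**
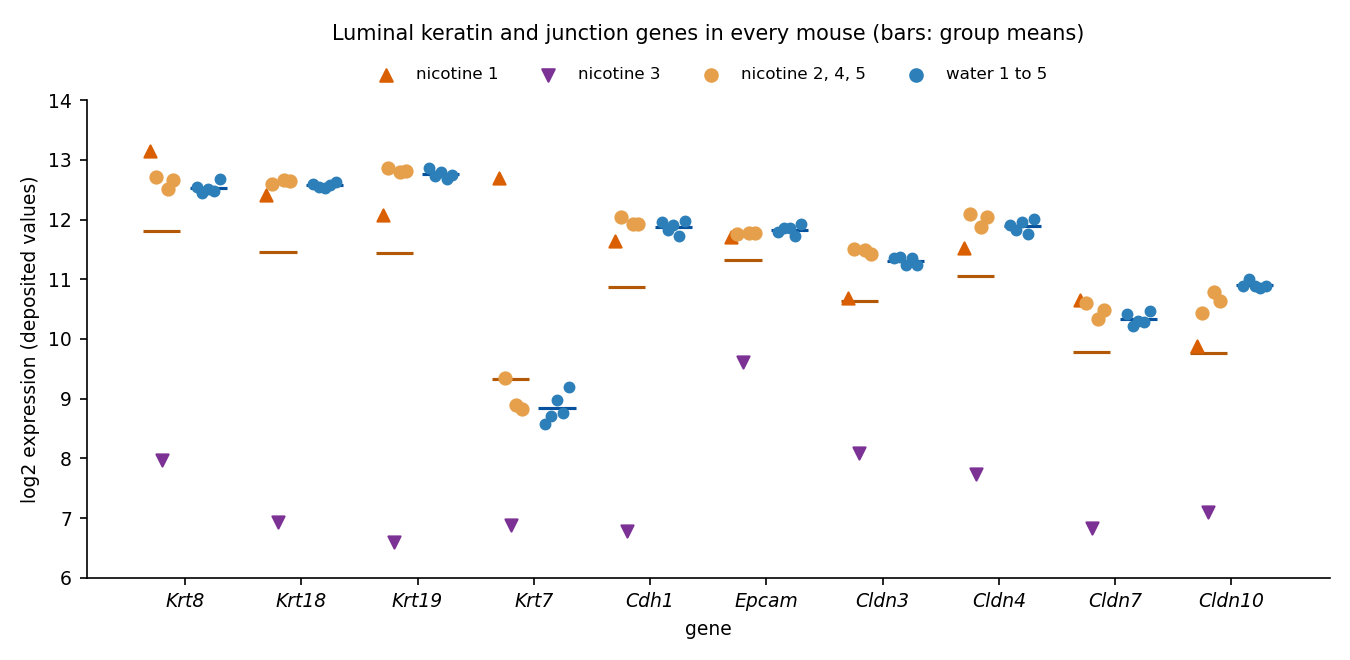
Deposited log2 expression (vertical axis) of the 10 genes (horizontal axis), with the 5 nicotine mice left of the 5 water mice for each gene, a point per mouse and a bar at each group mean. The purple triangles of nicotine 3 lie below all other mice for every gene, and the orange triangle of nicotine 1 is far above the rest for Krt7, at 12.69.

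The keratin genes were nearly constant in 8 mice and departed from that level in nicotine 3, and some of them in nicotine 1. Krt8, the type II partner of Krt18, was at 13.14, 12.71, 7.98, 12.51 and 12.66 log2 units in nicotine 1 to 5, against 12.54, 12.44, 12.51, 12.47 and 12.68 in water 1 to 5. Nicotine 1 was thus the highest of the 10 mice and nicotine 3 the lowest, at 4.26% of the water mean on the linear scale. Krt18, its type I partner, was at 12.41, 12.60, 6.94, 12.66 and 12.65 in nicotine 1 to 5, against 12.59, 12.55, 12.53, 12.58 and 12.63 in water 1 to 5. The spread among water mice was 0.04 (SD, n = 5), the smallest of the 10 genes, and nicotine 3 was at -5.63 units relative to their mean. Krt19, a type I keratin without a tail domain, was at 12.07, 12.87, 6.60, 12.80 and 12.82 in nicotine 1 to 5, against 12.87, 12.73, 12.80, 12.67 and 12.74 in water 1 to 5. Its distance of -6.16 units in nicotine 3, or 1.40% of the water mean, was the widest of the 10 genes. Krt19 also had the highest water mean of the 10, at 12.76. Its 6.60 in nicotine 3 was near the filter on low values, at 6.55. Distances in nicotine 3 thus depend in part on the water mean and do not rank how strongly each gene was lowered. For Krt19, nicotine 1 was also below every water mouse.

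Krt7, a type II keratin of simple and transitional epithelia, departed from the other keratins. It was at 12.69, 9.35, 6.88, 8.90 and 8.82 in nicotine 1 to 5, against 8.57, 8.71, 8.98, 8.76 and 9.20 in water 1 to 5. In nicotine 1 it was 14.3-fold above the water mean, while Krt8 was 1.53-fold above it, Krt18 1.12-fold below and Krt19 1.62-fold below. Nicotine 3, at 6.88, was 3.92-fold below the water mean of 8.85 and near the filter on low values, at 6.55. This gap cannot be set against those of the other 3 keratins, whose water means were 12.53 to 12.76. Nicotine 2 was above all water mice too, and nicotine 4 and 5 lay within their range.

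In the mouse RefSeq annotation Krt8 and Krt18 are neighbours on chromosome 15, with 0 protein-coding genes between them, and Krt7 lies in the same type II keratin cluster with 23 protein-coding genes between it and Krt8. Of the keratin genes between Krt7 and Krt8, 20 were measured. In nicotine 1 their distance from the water mean ran from -1.32 to 0.33 units. Thus 0 of the 20 was a full unit higher there, against 5.54% of all tested genes. The lowest was Krt4, a gene picked out after its values were seen, at 9.55 in nicotine 1 and 6.13 in nicotine 3, against a water mean of 10.87. All others of the 20 had water means of 8.16 or less, some of them under the filter at 6.55. The count of 0 is therefore not read as a result about Krt7. The 250 bases before the starts of Krt8, Krt18 and Krt7 are shown because all 3 lie on chromosome 15 and Krt7 departed from Krt8 and Krt18 in nicotine 1. They are read on the strand of the gene from RefSeq, build GRCm38.p6, and capitals mark CAGGTG or its reverse complement CACCTG, the E-box bound by the Zeb and Snai repressors of epithelial genes. Krt8 is chr15:102004343-102004592 on the minus strand, Krt18 is chr15:102027966-102028215 on the plus strand and Krt7 is chr15:101412153-101412402 on the plus strand.
Krt8: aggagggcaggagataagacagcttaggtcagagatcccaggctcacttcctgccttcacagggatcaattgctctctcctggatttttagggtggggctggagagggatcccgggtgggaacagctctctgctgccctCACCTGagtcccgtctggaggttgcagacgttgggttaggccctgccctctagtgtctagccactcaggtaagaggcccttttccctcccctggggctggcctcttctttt
Krt18: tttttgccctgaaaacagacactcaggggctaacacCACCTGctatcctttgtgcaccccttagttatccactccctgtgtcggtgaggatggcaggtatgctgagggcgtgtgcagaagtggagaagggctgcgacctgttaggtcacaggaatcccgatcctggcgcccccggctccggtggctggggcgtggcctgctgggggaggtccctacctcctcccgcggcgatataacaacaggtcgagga
Krt7: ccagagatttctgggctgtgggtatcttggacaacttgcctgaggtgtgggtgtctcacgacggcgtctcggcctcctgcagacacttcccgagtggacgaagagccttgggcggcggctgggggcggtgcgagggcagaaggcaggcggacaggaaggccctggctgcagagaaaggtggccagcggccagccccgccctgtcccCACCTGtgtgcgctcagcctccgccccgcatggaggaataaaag
Each window held 1 match, beginning at position -111 in Krt8, -214 in Krt18 and -44 in Krt7, counted back from the base before the start.

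The adhesion genes were both lowest in nicotine 3, but to different depths. Cdh1 was at 11.64, 12.04, 6.79, 11.92 and 11.93 in nicotine 1 to 5, against 11.96, 11.83, 11.90, 11.73 and 11.97 in water 1 to 5. Nicotine 3 was at 2.95% of the water mean, and nicotine 1 was a little under the lowest water mouse. Epcam was at 11.71, 11.75, 9.61, 11.78 and 11.78 in nicotine 1 to 5, against 11.79, 11.85, 11.86, 11.73 and 11.93 in water 1 to 5. It stood at 21.4% of the water mean in nicotine 3, a distance of -2.22 units where Cdh1 had -5.09. The window before the Epcam start, chr17:87635729-87635978 on the plus strand, held 2 matches, at positions -187 and -19. It is shown because Epcam kept the highest share of its water level after Krt7, whose water mean of 8.85 was nearer the filter.
Epcam: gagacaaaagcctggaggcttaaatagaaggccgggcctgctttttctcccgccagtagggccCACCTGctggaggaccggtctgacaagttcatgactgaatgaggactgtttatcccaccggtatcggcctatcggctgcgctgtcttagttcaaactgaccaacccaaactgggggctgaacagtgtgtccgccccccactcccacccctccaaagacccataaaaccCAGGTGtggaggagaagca
In bulk tissue, fewer epithelial cells and less RNA of these genes per cell cannot be told apart.

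The claudin genes followed the keratins in nicotine 3 and split in nicotine 1. Cldn3, a sealing claudin, was at 10.69, 11.51, 8.09, 11.49 and 11.43 in nicotine 1 to 5, against 11.35, 11.38, 11.23, 11.36 and 11.24 in water 1 to 5. Nicotine 2, 4 and 5 were above all water mice and nicotine 1 and 3 below them. Cldn4, its neighbour with 0 protein-coding genes between them on chromosome 5, was at 11.53, 12.09, 7.74, 11.88 and 12.05 in nicotine 1 to 5, against 11.90, 11.83, 11.96, 11.76 and 12.01 in water 1 to 5. Nicotine 1 and 3 were again below all water mice, nicotine 3 at 5.62% of their mean. The Cldn4 window, chr5:134946935-134947184 on the minus strand, is shown because Cldn4 had the largest distance in nicotine 3 of the 4 claudins of the set. Its water mean of 11.89 was also the highest of these 4, so the distance does not show a stronger fall than in the others. The 1 match in the window lies at position -14.
Cldn4: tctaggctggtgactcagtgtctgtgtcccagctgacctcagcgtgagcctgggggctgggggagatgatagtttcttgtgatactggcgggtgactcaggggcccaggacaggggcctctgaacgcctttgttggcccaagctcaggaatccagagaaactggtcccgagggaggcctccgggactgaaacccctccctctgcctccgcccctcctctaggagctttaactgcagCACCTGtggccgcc
Cldn7, which is found along the lateral membrane as well as at tight junctions, was at 10.65, 10.60, 6.84, 10.33 and 10.48 in nicotine 1 to 5, against 10.41, 10.21, 10.30, 10.28 and 10.46 in water 1 to 5. Here nicotine 1 was the highest of the 10 mice, and nicotine 3 was at 8.90% of the water mean. Cldn7 and Krt8 were 2 of the 3 genes of the set that were above the water mean in nicotine 1, beside Krt7.

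Cldn10, a claudin that forms ion-selective paracellular pores, was the gene of the set in which the groups did not overlap. It was at 9.88, 10.44, 7.10, 10.79 and 10.64 in nicotine 1 to 5, against 10.89, 11.01, 10.88, 10.86 and 10.89 in water 1 to 5. All 5 nicotine mice were below all 5 water mice, the nearest being nicotine 4 at 10.79 and water 4 at 10.86. A second probe set of the gene gave the same order of groups, at 9.35, 9.96, 6.65, 10.24 and 10.10 in nicotine 1 to 5, against 10.33, 10.45, 10.32, 10.30 and 10.30 in water 1 to 5. Groups that do not overlap in the lower direction were found in 1 of the 10 genes, against 2.88% of all tested genes, and in the higher direction in 0, against 2.02%. In either direction the background was 4.90%, and 1 gene of 10 is not read as more than that.

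**Figure D2:**
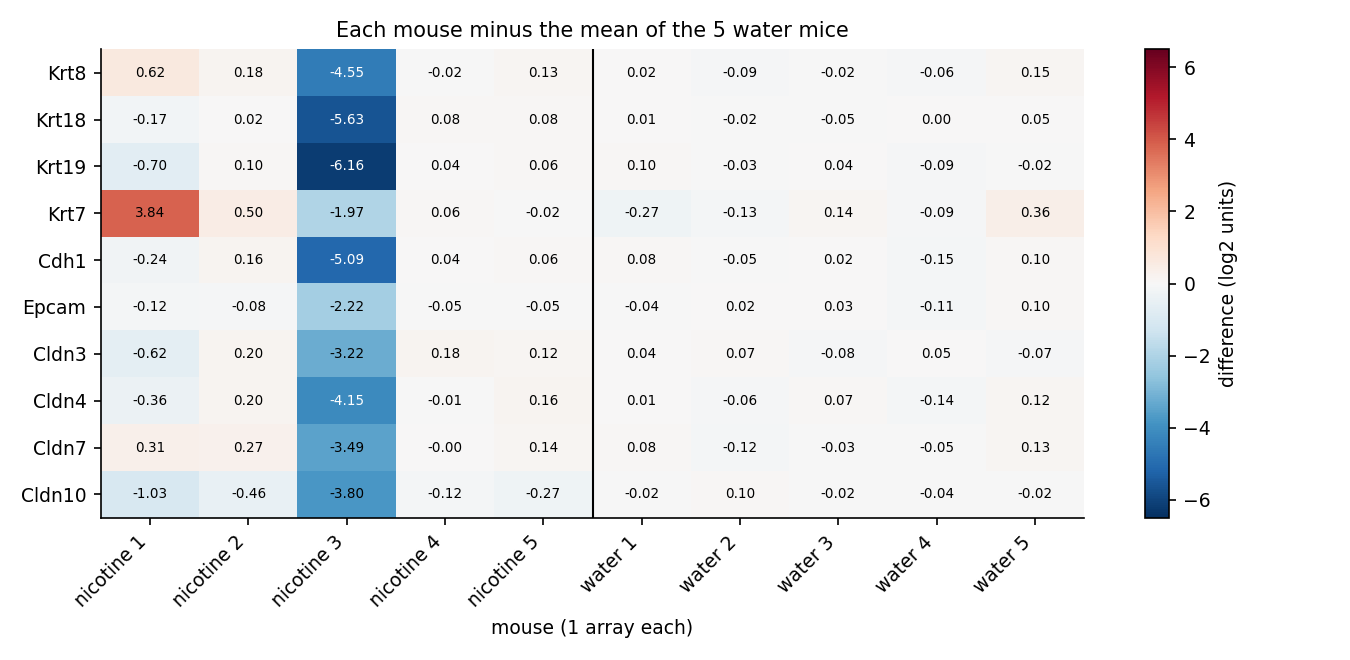
Each mouse minus the mean of the 5 water mice, in log2 units, for the 10 genes (rows) and 10 mice (columns, nicotine left of the line and water right of it). The nicotine 3 column runs from -1.97 for Krt7 to -6.16 for Krt19, the nicotine 1 column holds both 3.84 for Krt7 and -1.03 for Cldn10, and in the other 8 columns no value passes 0.50 in either direction.

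Counted by mouse, 10 of the 10 genes were at least 1 log2 unit below the water mean in nicotine 3, where 14.3% of all tested genes were. At least 2 units below were 9 of 10, against 5.80% of tested genes, and at least 4 units below were 5 of 10 (Krt8, Krt18, Krt19, Cdh1 and Cldn4), against 0.910%. The 10 genes had water means of 8.85 (Krt7) to 12.76 (Krt19), above the array medians of 7.50 to 7.57. Many tested genes had lower levels and less room to fall, so the contrast with these shares partly reflects the starting level. In nicotine 1, 1 gene was at least 1 unit lower (Cldn10, background 4.60%) and 1 at least 1 unit higher (Krt7, background 5.54%). No gene of the set was that far from the water mean in any of the other 8 mice. These counts describe single arrays and carry no test. Over the set, the median distance from the water mean was -3.98 units in nicotine 3 and -0.20 in nicotine 1, where the median of all tested genes was -0.02 and -0.01.

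The question of the study, whether nicotine changes expression in the prostate, was asked of the 10 genes in a limma fit over all 14953 tested genes. None passed an adjusted p of 0.05 (adjusted p from 0.458 for Cldn10 to 0.746 for Krt7), and none had an unadjusted p under 0.05. Of all tested genes 0 passed, or 0%, and 1514 had an unadjusted p under 0.05, or 10.1%, of which 5.84% were lower and 4.28% higher. The difference, nicotine minus water, was negative in 9 of the 10 genes, against 49.3% of tested genes, and its median was -0.78 log2 units against 0.00389 over all tested genes. It was -1.33 ± 1.1 (SE) for Krt19, -1.14 ± 0.62 for Cldn10, -1.12 ± 1.02 for Krt18, -1.01 ± 0.93 for Cdh1 and 0.48 ± 0.86 for Krt7. The 95% confidence interval was -2.53 to 0.25 for Cldn10 and -3.08 to 1.05 for Cdh1, so neither a large decrease nor a lack of change can be read from 5 against 5 mice. The widths go with the spread among nicotine mice: the SD among nicotine mice was 2.28 for Cdh1 against 0.10 among water mice, and 2.72 for Krt19 against 0.07. The nicotine SD was at least 4 times the water SD in 10 of the 10 genes, where this held for 36.7% of tested genes, and the ratio ran from 8.48 for Krt7 to 66.8 for Krt18, against a median of 2.83 over tested genes.

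Without nicotine 1 and 3, the limma test set 3 nicotine mice against the 5 water mice, and again none of the 10 genes passed (adjusted p from 0.141 to 0.664; 0 of 14953 genes in all, or 0%). The difference was positive in 8 of 10 genes and negative in 2, against 46.5% negative over tested genes, with a median of 0.09 against 0.0095. It was 0.10 ± 0.07 (SE) for Krt8, 0.06 ± 0.05 for Krt18, 0.09 ± 0.07 for Cdh1 and -0.06 ± 0.06 for Epcam. Its 95% confidence interval was -0.05 to 0.17 for Krt18 and -0.06 to 0.24 for Cdh1. An unadjusted p under 0.05 was found for 2 of the 10 genes, where 14.7% of tested genes had one: Cldn10 with -0.28 ± 0.08 (limma unadjusted p = 0.00376, adjusted p = 0.141) and Cldn3 with 0.17 ± 0.06 (limma unadjusted p = 0.0147, adjusted p = 0.214). For Krt8, Krt18, Krt19, Cdh1, Cldn3, Cldn4 and Cldn7 the sign of the difference turned when these 2 mice were left out.

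**Figure D3:**
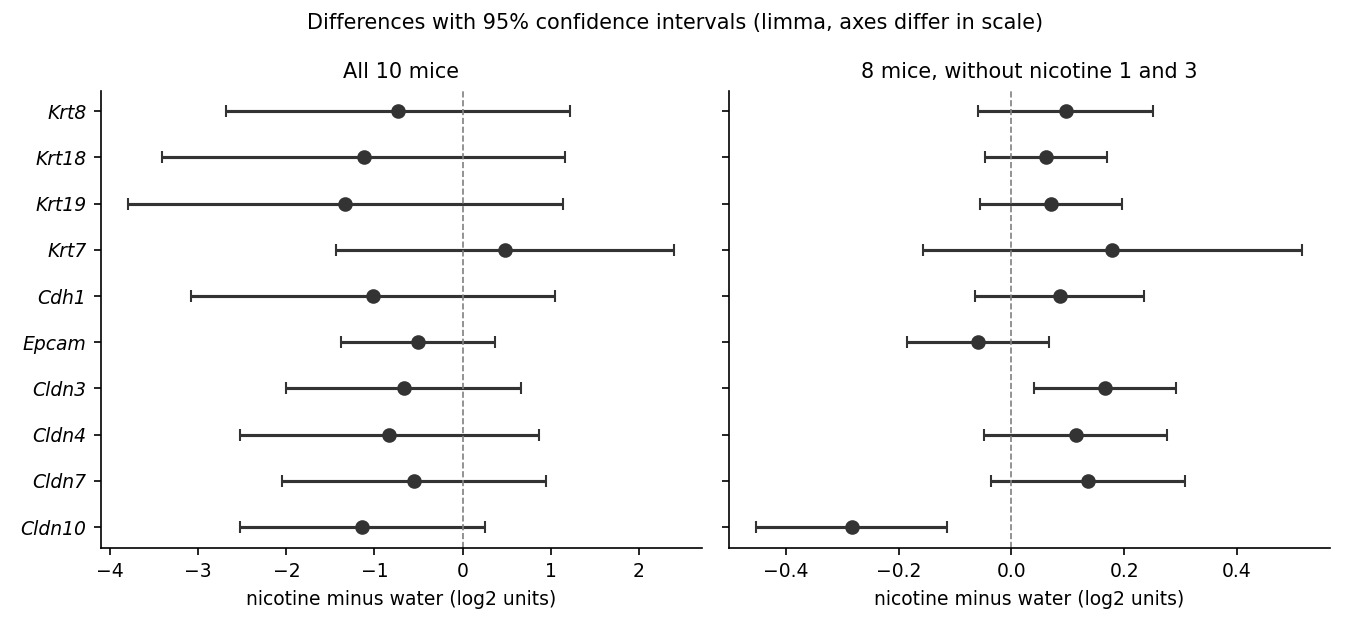
Nicotine minus water in log2 units (horizontal axes, which differ in scale) with 95% confidence intervals from limma for the 10 genes, over all 10 mice at left and over 8 mice without nicotine 1 and 3 at right. At left every interval spans 0, and at right the intervals of Cldn10, from -0.45 to -0.11, and Cldn3, from 0.04 to 0.29, do not.

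Across the 10 mice, the 36 pairs of genes without Krt7 had Pearson correlations of 0.915 to 0.999, and the 9 pairs with Krt7 had 0.304 to 0.644. In the 8 mice without nicotine 1 and 3, the same pairs ran from -0.83 to 0.95 and from -0.59 to 0.72, so the uniformly high range over 10 mice was not found without nicotine 1 and 3. The tested genes most like each member over the 10 arrays included F11r, a tight junction adhesion molecule, for Krt18 (r = 0.9994, and 0.78 in the 8 mice). They also included Ctnna1, the catenin that links cadherins to actin, for Cdh1 (r = 0.9994, and 0.83 in 8 mice), and the occludin gene Ocln for Epcam (r = 0.9986, and 0.80 in 8 mice). For Cldn10 the gene was Mme, which codes for the membrane protease neprilysin, with r = 0.9993 over the 10 arrays and 0.96 in the 8. For Krt7 it was Pick1, with r = 0.9905 and 0.72. The genes most alike over the 10 arrays were St6galnac2 for Krt8 (r = 0.9964), Ceacam1 for Krt19 (r = 0.9994), Ildr1 for Cldn3 (r = 0.999), Clec2d for Cldn4 (r = 0.9988) and Ap1m2 for Cldn7 (r = 0.9967). In the 8 mice they were Git1 for Krt8, Lrrc29 for Krt18, Arhgap27 for Krt19, Carhsp1 for Krt7 and Vrk3 for Cdh1, and then Ndufaf1 for Epcam, Crip2 for Cldn3, Des for Cldn4, Clic1 for Cldn7 and Cmas for Cldn10 (r from 0.94 to 0.99). These are the highest among the tested genes outside the set, with predicted and clone names left out. They rest on few arrays and are given as descriptions only.

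The partners of these genes in the junctions were low in nicotine 3 for some components and not for others. Of 14 tested tight junction genes, 11 were at least 1 unit below the water mean in that mouse, against 14.3% of all tested genes. The median distance of the list was -1.57. The membrane-spanning occludin gene Ocln was at 5.93, against 10.47 to 10.86 in water mice, while the scaffold gene Tjp1 was at 10.77, against 10.24 to 10.49. Of 11 adherens junction genes, 4 were that far below, with a median of -0.71. The alpha-catenin gene Ctnna1 was at 8.95 in nicotine 3, against 11.17 to 11.29 in water mice, and the beta-catenin gene Ctnnb1 was at 12.12, against 11.96 to 12.14. The nectin genes went both ways there, Nectin4 being at 7.11 against 9.22 to 9.46 in water mice and Nectin3 at 8.82 against 7.0 to 7.13. Of 9 desmosome genes, which anchor keratin filaments at the membrane, 5 were at least 1 unit lower, among them the desmoplakin gene Dsp at 6.64 against 11.12 to 11.36. Tjp1, Ocln, Ctnna1, Nectin3, Nectin4 and Dsp were picked out after their values were seen.

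Between nicotine and water, 0 of the 14 tight junction, 11 adherens junction and 9 desmosome genes passed the limma test over all genes, and the smallest unadjusted p in these 3 lists was that of Nectin1 (difference 0.34 ± 0.15 SE, limma adjusted p = 0.458). A negative difference was found in 13 of 14 tight junction genes, against 49.3% of all tested genes, such as Cgnl1 with -0.46 ± 0.26 and Patj with -0.58 ± 0.40. It was found in 6 of 11 adherens junction genes, close to that share, such as Ctnnd1 with -0.39 ± 0.22 but not Ctnnb1 with 0.14 ± 0.08. The difference was also negative in 8 of 9 desmosome genes, such as Perp with -1.15 ± 0.70 but not Pkp1 with 0.55 ± 0.38. The median differences were -0.31, -0.01 and -0.19 in these lists, against 0.00389 over all tested genes. Without nicotine 1 and 3 they were -0.05, 0.08 and 0.07. The single differences were then 0.12 ± 0.09 (SE) for Nectin1, -0.10 ± 0.07 for Cgnl1, -0.11 ± 0.07 for Patj and -0.09 ± 0.08 for Ctnnd1. For Ctnnb1 the value was 0.10 ± 0.07, for Perp -0.13 ± 0.08 and for Pkp1 0.19 ± 0.11. Each of the 7 kept its sign, but they were named for small p-values in the same mice, so this is no separate support. The medians of the adherens junction and desmosome lists turned from negative to positive.

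The other claudins on the array mostly had water means near the filter on low values, at 6.55, so their distances in nicotine 3 cannot be set against those of the 4 claudins of the set. Of 18 other claudin genes 12 were tested, with a median distance from the water mean of -0.16 in nicotine 3, and 3 of them were at least 1 unit lower there: Cldn8 (-4.82, water mean 12.09), Cldn1 (-1.47, water mean 7.69) and Cldn12 (-1.01, water mean 9.19). The other 9 had water means of 6.73 to 8.09. Of all tested genes 14.3% were at least 1 unit lower in nicotine 3. Cldn8, the nearest to the set, was at 10.97, 11.79, 7.27, 12.07 and 11.97 in nicotine 1 to 5, against 11.98 to 12.18 in water mice, a difference of -1.27 ± 0.82 (SE, limma adjusted p = 0.464), and of -0.14 ± 0.07 without nicotine 1 and 3 (limma adjusted p = 0.403). The groups differed in 6 of the 12 in the negative direction, against 49.3% of all tested genes, and in 6 in the positive direction. Of the 12, 0 were past the test, and their median difference without nicotine 1 and 3 was 0.03. Cldn12 was named after its values were seen. Cldn6, a claudin of embryonic epithelia picked out after its values were seen, was at 9.95 in nicotine 1, against 6.71 to 7.19 in water mice, and at 6.80 in nicotine 3.

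**Figure D4:**
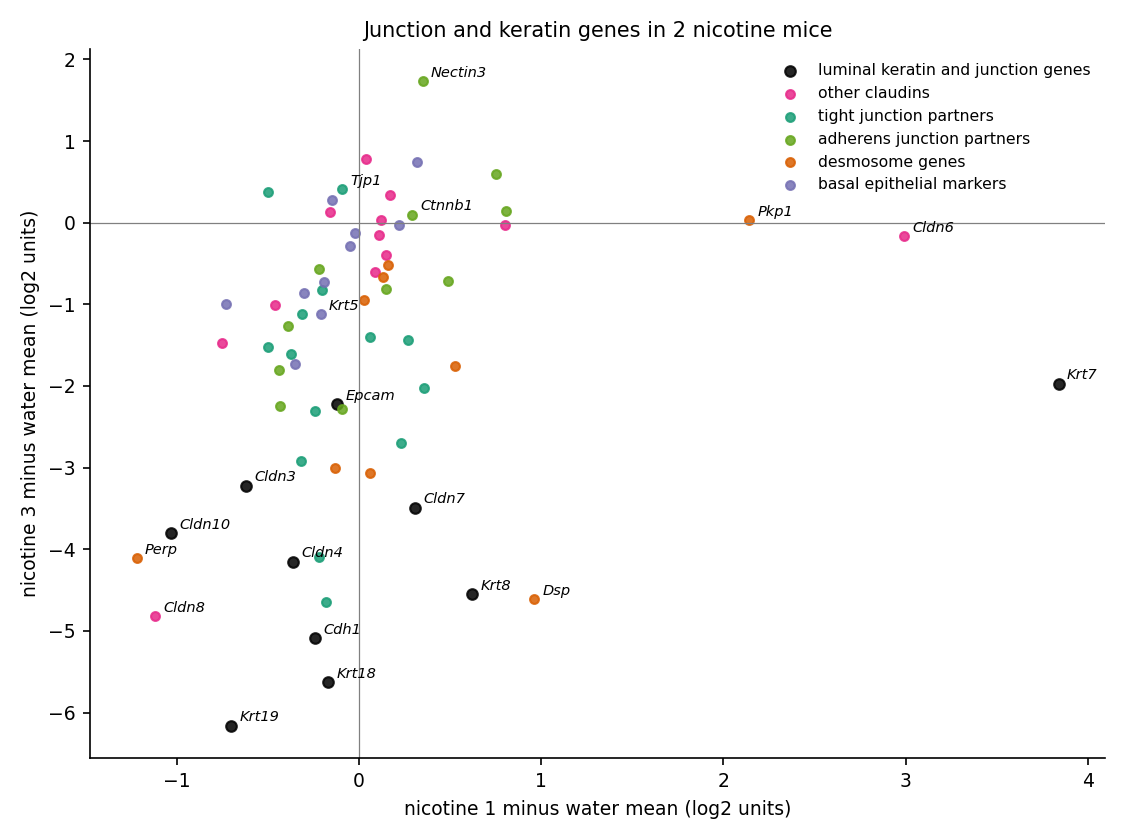
Each point is a tested gene, placed by nicotine 1 minus the water mean (horizontal axis) and nicotine 3 minus the water mean (vertical axis), both in log2 units, and coloured by gene list. The 10 luminal keratin and junction genes (black) lie between -1.97 and -6.16 on the vertical axis, with Krt7 alone far to the right among them, at 3.84 on the horizontal axis.

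Regulators known to act on Cdh1 and the other junction genes were measured beside them. Grhl2, a transcription factor that activates Cdh1 and Cldn4, was at 7.33 in nicotine 3, against 10.61 to 10.97 in water mice. Esrp1, an epithelial splicing factor, was at 5.99 against 10.72 to 10.91, and Ehf, an epithelial ETS factor, at 6.75 against 12.21 to 12.35. Of the 11 genes in this list 9 were at least 1 unit lower in nicotine 3, against 14.3% of all tested genes. In nicotine 1 the count was 0, against 4.60%. Ovol1 alone was at least 1 unit higher in nicotine 1 (background 5.54%), at 9.00 against 7.20 to 7.33. The repressor genes Zeb1 and Zeb2 were at 10.37 and 10.70 in nicotine 3, against 8.83 to 9.06 and 7.62 to 8.27 in water mice. Snai1 was at 8.14 there, within the water range of 8.04 to 8.22, and Snai2 at 6.77, below its range of 7.66 to 7.93. The neural cadherin gene Cdh2 was at 8.62, 5.92, 9.84, 6.06 and 5.89 in nicotine 1 to 5, against 5.81 to 6.29 in water mice, so it was high in both mice that were high in neuroendocrine markers, whereas Cdh1 was at -5.09 units from the water mean in nicotine 3 and -0.24 in nicotine 1. Vim was at 11.55 in nicotine 3, against 11.53 to 12.10 in water mice. In nicotine minus water 0 of the 11 epithelial regulators and 0 of the 9 mesenchymal transition genes passed the limma test. The medians of those 2 lists were -0.53 and 0.03 with all mice, and 0.04 and -0.11 without nicotine 1 and 3. The part of these regulators in the levels of the keratin and junction genes was not tested.

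Of the 10 genes, 8 had promoter windows in the RefSeq table and 2, Krt19 and Cdh1, had none there. Among their 10 windows of 250 bases, which include 2 each for Cldn7 and Cldn10, 6 held CAGGTG on either strand, where 17.2% of 32851 windows of that length did. These 6 belong to Krt8, Krt18, Krt7, Epcam, Cldn4 and Cldn7. The windows of Cldn3 and Cldn10 held none. AACCNGTT, a motif of Grainyhead factors such as Grhl2, was found on either strand in 0 of the 10 windows and in 1.79% of all windows. It shares no match with CAGGTG. Both motifs were chosen with the expression values known, and a match is not evidence of binding. The part of either motif in the expression levels was not tested.

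Levels of other tissues moved with the 2 arrays that stood apart, and also within the water group. Seminal vesicle markers averaged 6.86, 7.96, 5.92, 8.54 and 12.52 in nicotine 1 to 5, against 7.21, 7.31, 12.06, 13.15 and 12.95 in water 1 to 5. The mean of the 10 luminal genes stayed between 11.42 and 11.57 over those 5 water mice, although the seminal vesicle mean ran from 7.21 to 13.15 among them. The basal markers had a mean of 7.57 for nicotine 3 and 7.89 for nicotine 1, against 7.96 to 8.09 in water mice. Krt5 was at 6.56 in nicotine 3 and 7.47 in nicotine 1, against 7.5 to 8.06. Of 10 tested basal genes 2 were at least 1 unit lower in nicotine 3, where 14.3% of all tested genes were, with a median of -0.51. Dst and Lamb3 were above every water mouse there, at 10.06 against 9.2 to 9.44 and 7.98 against 7.64 to 7.82. Krt5, Krt14, Krt15, Krt17, Trp63, Col17a1 and Lamb3 had water means of 7.27 to 7.71, near the filter on low values, at 6.55. Their distances in nicotine 3 cannot be set against those of the luminal genes. For smooth muscle the mean was 8.18 in nicotine 3 and 10.56 in nicotine 1, against 11.04 to 11.30, and for skeletal muscle 7.20 and 10.01, against 7.40 to 7.52. For fibroblasts all 5 nicotine mice, at 8.64 to 9.49, were below the water mice, at 9.72 to 10.09. Of 8 tested genes 5 had an unadjusted limma p under 0.05, against 10.1% of all tested genes, with 0 past the adjusted one. The fibroblast list was chosen with earlier results of these data known. The median difference of that list was -0.61, and -0.56 without nicotine 1 and 3. For urothelium the mean was 7.01 in nicotine 3 and 8.68 in nicotine 1, against 8.61 to 8.76, and among them Krt20 was at 7.69 in nicotine 1, against 5.80 to 6.0 in water mice, while Upk1b, at 10.84, was below the water range of 11.81 to 11.98. The part of other cell types in the Krt7 level of nicotine 1 was not tested.

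Some prostate genes were less low in nicotine 3. Hoxb13 and Foxa1, which code for transcription factors of the prostate lineage, were at 10.23 and 11.26 in that mouse, against 10.80 to 11.23 and 11.71 to 11.96 in water mice, both below every water mouse. Their distances of -0.79 and -0.58 units compare with -4.55 for Krt8, -5.63 for Krt18 and -6.09 for the secretory gene Pbsn. Of the 8 tested secretory and lineage markers 6 were at least 1 unit lower in nicotine 3, with a median of -5.73, and 4 in nicotine 1, with a median of -0.93. Of all tested genes 14.3% were that far lower in nicotine 3 and 4.60% in nicotine 1. Of 8 tested epithelial membrane protein genes 7 were at least 1 unit lower in nicotine 3, with a median of -3.92 close to the -3.98 of the luminal genes. Among them the protease inhibitor gene Spint2 was at 8.16 in nicotine 3 and 12.08 in nicotine 1, against 12.16 to 12.33 in water mice, and Prss8 at 6.76 and 10.08, against 11.16 to 11.45.

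**Figure D5:**
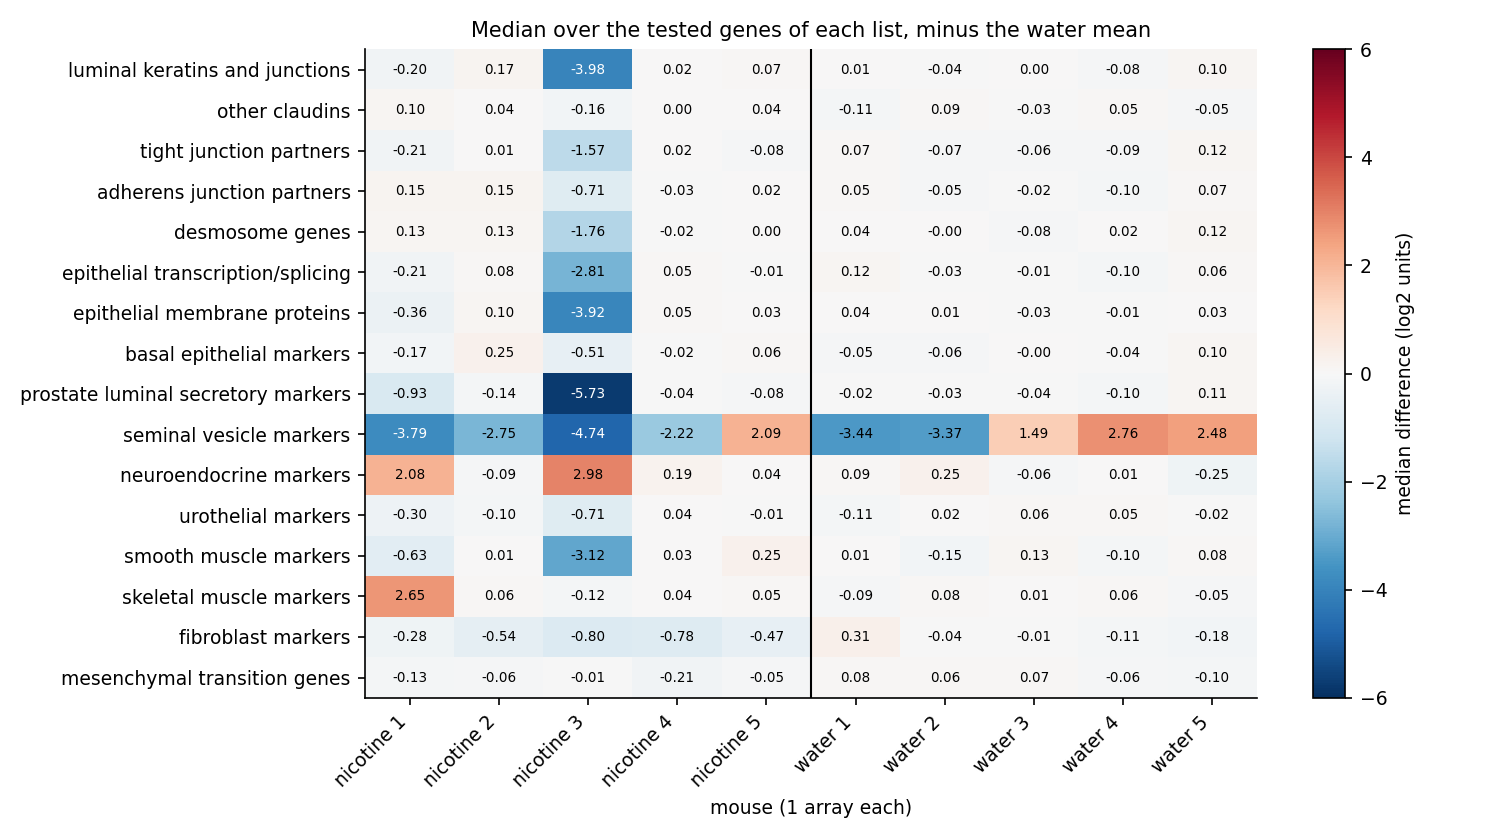
Median over the tested genes of each list (rows) of each mouse (columns, nicotine left of the line) minus the water mean, in log2 units. In nicotine 3 the luminal keratin and junction genes (-3.98), epithelial membrane proteins (-3.92) and secretory markers (-5.73) are low and neuroendocrine markers (2.98) high, while in nicotine 1 neuroendocrine (2.08) and skeletal muscle markers (2.65) are high and the luminal genes are at -0.20.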

How the data were processed

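The authors deposited 1 table of log2 values for 35556 probe sets on 10 arrays, per the file itself; RNA was extracted with Trizol, amplified, biotin-labelled and hybridised to single-colour arrays, per the labels' protocols. How they were background-corrected and normalized was not given in the sources used here, and the log2 scale was read from the range of 3.59 to 14.1. No batch label was used here. With 1 array per mouse, p-values measure the spread between mice, and 5 arrays a group limit the precision.

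The possibly outdated platform annotation gave 1 symbol to 21789 probe sets, several to 1621 and none to 12146. By Entrez identifier 21698 of the 21789 were found in RefSeq, with 0 symbols changed. The probe set with the highest mean was kept per gene, and the 25% of 19938 genes with the lowest mean, under 6.55, were left out. Nicotine was compared with water by limma 3.58.1 in R 4.3.3 (lmFit, eBayes, two-sided, Benjamini-Hochberg over 14953 genes), checked on simulated data.

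The 10 genes, the 15 other lists (169 genes with the 10, of which 163 were measured) and the tests were chosen with earlier results of these data known. Named genes were all 10 of the set, up to 4 per list with the smallest unadjusted p, and the most alike gene per member; others, such as Zeb1, Zeb2, Snai1, Esrp1, Ovol1 and Krt20, were picked after their values were seen.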

Additional observations from a re-analysis of the deposited data

Results flagged for a closer look

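Each of the 10 genes was screened in each group of 5 mice for a mouse whose gap to its nearest neighbour took up more than 0.710 of the group's range, which chance gives in about 1 of 20 groups. Of 20 groups 10 met this, where chance gives about 1. In 9 of them the mouse was nicotine 3, on the low side, with a share of the range of 0.877 for Krt8, 0.957 for Krt18, 0.872 for Krt19, 0.924 for Cdh1, 0.965 for Epcam, 0.759 for Cldn3, 0.873 for Cldn4, 0.917 for Cldn7 and 0.752 for Cldn10. These 9 share 1 array and are not separate observations. The remaining one was Cldn10 in water 2, at 0.833, where the range of the water mice was narrow, from 10.86 to 11.01. Krt7 did not meet it in the nicotine group, where nicotine 1 was high and nicotine 3 low.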

How the results depend on the processing

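Over 21 other settings, 0 genes passed in 20. In the remaining setting, arrays were weighted by how closely their values fit the group means (array weights). This gave 1096 genes (425 higher and 671 lower), none of them in the set. Of the values for the 10 genes 191 kept their sign, 19 turned it and none passed. With array weights the sign turned for Krt8 (0.12), Krt18 (0.055), Krt19 (0.034), Cdh1 (0.065), Cldn3 (0.14), Cldn4 (0.11) and Cldn7 (0.16). Without nicotine 1 and 3 it turned for Krt8 (0.10), Krt18 (0.061), Krt19 (0.070), Cdh1 (0.086), Cldn3 (0.17), Cldn4 (0.11) and Cldn7 (0.14). Leaving out 1 mouse at a time gave differences from -1.07 to 0.23 for Krt8, -1.42 to 0.0045 for Krt18, -1.69 to -0.12 for Krt19, -1.31 to 0.0040 for Cdh1, -0.62 to -0.08 for Epcam, -0.89 to -0.03 for Cldn3, -1.09 to -0.0041 for Cldn4, -0.77 to 0.18 for Cldn7 and -0.36 to 1.09 for Krt7, the upper ends being without nicotine 3. The lower end for Krt7 was without nicotine 1. Deviations from the group means of mice with the same number correlated at -0.13 to 0.16, which gave no sign that the numbers pair the mice. Pairing is not excluded by this, because nicotine 1 and 3 weigh on the nicotine mean. With the mouse number as a replicate block 0 genes passed, and Cldn10 was at -1.14 (adjusted p = 0.506); it ran from -1.39 to -0.28 over all settings, with adjusted p from 0.106 to 0.858. With the seminal vesicle mean as covariate the differences were -0.34 for Krt8, -0.62 for Krt18, -0.78 for Krt19, 0.51 for Krt7, -0.57 for Cdh1, -0.31 for Epcam, -0.36 for Cldn3, -0.43 for Cldn4, -0.25 for Cldn7 and -0.81 for Cldn10 (adjusted p from 0.858 to 0.92). The levels of the set in nicotine 3 rest on 1 mouse, and no detection calls were used, so no gene is called absent there.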
